A study of Homo sapiens with 6 samples.

Results

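The cAMP signaling genes of the ovarian cancer line IGROV1 were compared between cells sensitive to GDC0032 (IGROV1Sen) and cells that had acquired resistance to it (IGROV1Res). The set held 68 of the 14646 genes with deposited counts. It was formed by gene symbol from the adenylyl cyclases, the phosphodiesterases, the inhibitory and olfactory G protein alpha subunits, the subunits and inhibitors of protein kinase A (PKA), the A-kinase anchoring proteins, the RAPGEF and RAP1 genes, and the CREB family with its coactivators. In the resistant cells the PKA subunits PRKAR2B and PRKACB and the anchoring protein AKAP7 fell by 2.07, 1.57 and 1.39 on the log2 scale, whereas the phosphodiesterase PDE4A and the exchange factor RAPGEF5 rose by 1.72 and 2.01. The cyclase ADCY1 went from 24 to 38 counts per library in the sensitive cells to between 0 and 2 in the resistant cells.

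Cyclic AMP is made from ATP by adenylyl cyclases, which stimulatory G proteins switch on and inhibitory G proteins restrain, and it is broken down by phosphodiesterases. It binds the regulatory subunits of PKA, which then let go of the catalytic subunits, while anchoring proteins hold the kinase at defined places in the cell. Cyclic AMP also acts through the RAP1 exchange factors RAPGEF3 and RAPGEF4, and PKA phosphorylates transcription factors such as CREB1 that bind the cAMP response element in promoters.

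IGROV1 is a human ovarian carcinoma line with a PIK3CA alteration, and GDC0032 is a PI3K inhibitor that spares the beta isoform. RNA-seq was done on 3 libraries of IGROV1Sen and 3 of IGROV1Res, and the comparison asks which transcripts differ between the lines. The resistant line was derived by culturing the sensitive one in rising concentrations of GDC0032. The sample names of both groups carry the letters UT, which the labels do not spell out, and they list no drug. The study's methods describe RNA from cells given GDC0032 or its solvent DMSO, and the labels do not say which of these, if either, the 6 libraries received. The sources do not say whether IGROV1Res is 1 clone, so a change brought by selection of cells cannot be told apart from a response to the drug. They also do not say whether the libraries of a line came from separate cultures, so the p-values measure the spread between these libraries, which may be technical.

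Library totals ran from 12808922 to 15241394 counts, so that 3 counts corresponded to between 0.197 and 0.234 CPM, the usual unit of counts scaled to the library total. IGROV1Sen replicate 1 and IGROV1Res replicate 3 stood apart, with 7.02% and 6.94% of their counts on mitochondrial genes against 10.1% to 12.8% in the other 4. IGROV1Sen replicates 2 and 3 differed least, at a chi-square over its degrees of freedom of 1.49, against 12.4 to 34.4 for the other pairs within a group. The ovarian marker PAX8 was at 832 CPM in the sensitive and 819 CPM in the resistant cells. EPCAM and CDH1 averaged below 2 CPM in both groups, with EPCAM at 0.73 CPM in the sensitive and 1.93 CPM in the resistant cells. The 7 of 9 epithelial markers in the table summed to between 1370 and 1520 CPM in the sensitive and between 2010 and 2410 CPM in the resistant libraries. Among them KRT18 went from 294.9 to 1063 CPM and KRT8 from 7.94 to 53.8 CPM, whereas KRT19 went from 320.2 to 282.4 CPM. Of 7 fibroblast markers 4 were in the table, at 20.3 to 23.3 CPM in sum in the sensitive and 28.6 to 45.5 in the resistant libraries, and of 4 endothelial markers 2 were, at 114 to 142 and 175 to 178 CPM. Of the fibroblast markers, COL1A1 was lower in the resistant cells, at 7.70 against 13.7 CPM, and COL1A2, LUM and PDGFRB were higher. None of 5 leukocyte markers was in the table. The part of these differences in the results was not tested. In bulk RNA, fewer cells expressing a gene and less of its RNA per cell cannot be told apart.

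Of the 68 genes, 65 had enough counts to be tested by edgeR's quasi-likelihood test, with Benjamini-Hochberg adjustment over all 13791 genes tested and a threshold of 0.05. Of these 65, 12 rose (18.5%), 16 fell (24.6%) and 37 did not pass, beside 17.4% of all tested genes that rose and 18.3% that fell. The median log2 fold change of the cAMP signaling genes was -0.07, and that of all tested genes was -0.01. A log2 fold change of 1 or more in size, with the test passed, was reached by 13 of the 65 (20%), beside 10.4% of all tested genes. In 26 of the 28 genes that passed, the CPM of the groups did not overlap, and the same was true of 11 of the 37 that did not pass. Over all tested genes the groups did not overlap in 47.8%, in 97.5% of those that passed and in 20.3% of those that did not. Without IGROV1Sen replicate 1 and IGROV1Res replicate 3, a setting chosen after seeing the data, 15 rose and 18 fell, among them 11 of the 12 and all 16. The counts over all genes also went up, from 2394 to 2946 that rose and from 2530 to 2905 that fell. With IGROV1Sen replicates 2 and 3 summed instead, 9 rose and 12 fell, beside 1605 and 1892 over all genes. The plot of all tested members by role shows that the larger changes were spread over several steps of the pathway.

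**Figure D1:**
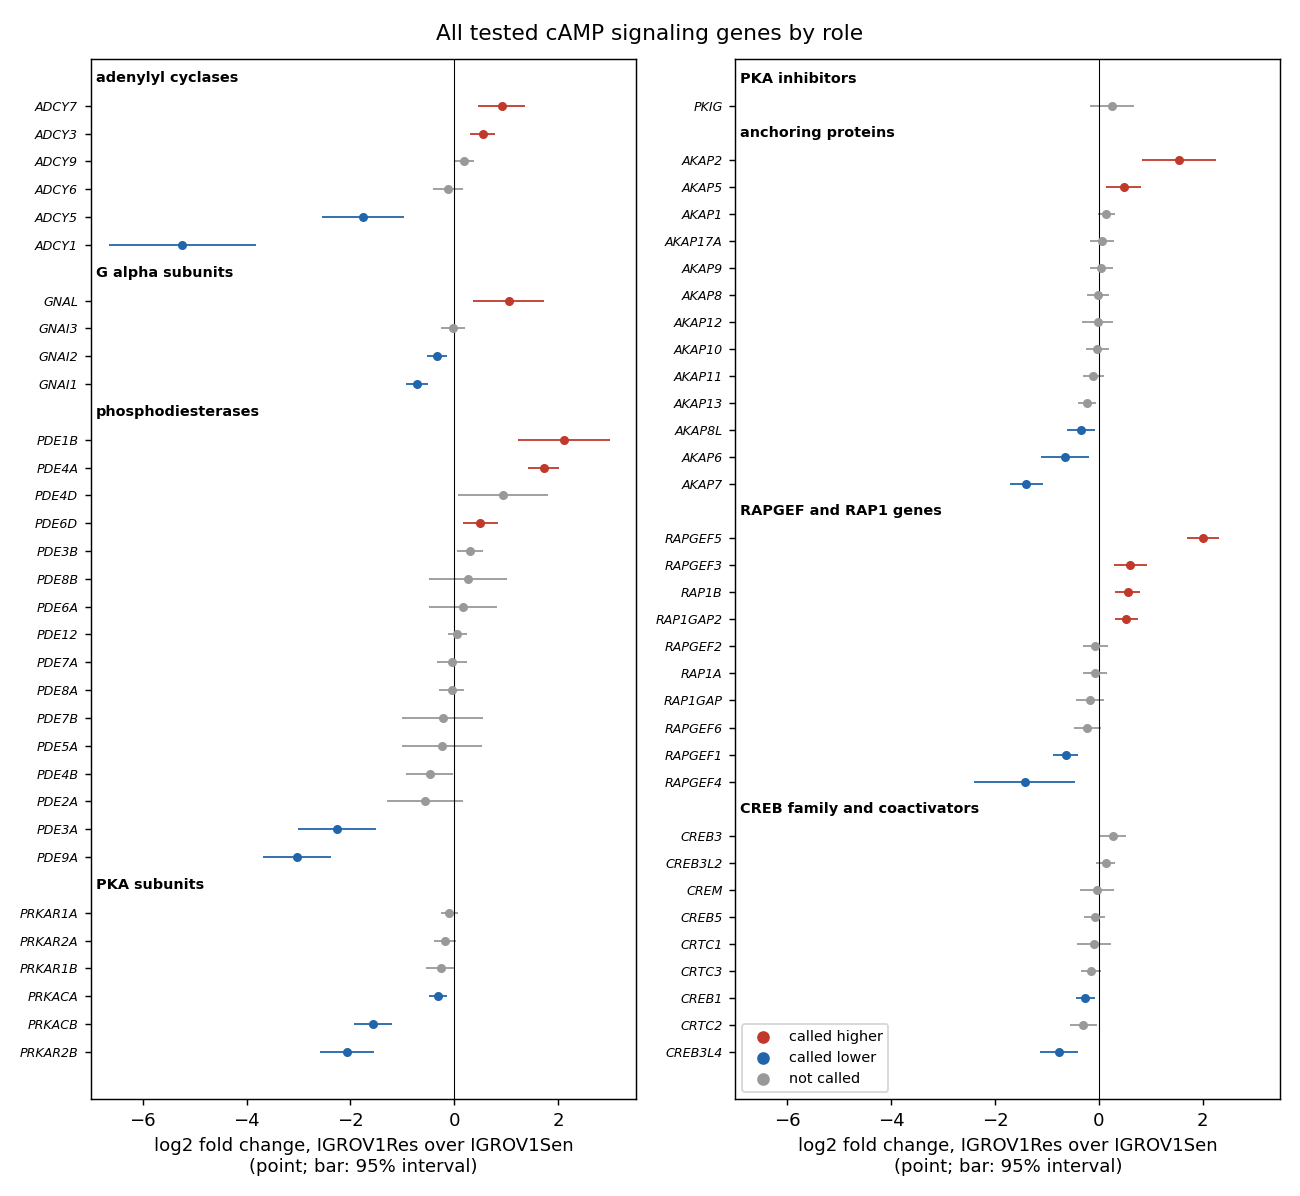
Log2 fold change of IGROV1Res over IGROV1Sen (horizontal axis) for the 65 tested genes, grouped by role, with points for the estimate and bars for its 95% interval. Red points rose, blue points fell and grey points did not pass the test, and ADCY1, PDE9A and PDE3A lie farthest to the left, and PDE1B and RAPGEF5 farthest to the right.

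Promoter windows are shown for 3 genes that moved, since factors that PKA phosphorylates, such as CREB1, bind the cAMP response element TGACGTCA in promoters. RefSeq windows of GRCh38.p14, running from 250 bases before to 50 after each transcript start, matched 59 of the 68 genes and gave 142 windows. PDE4A and RAP1B were the 2 genes among those that rose that held the full element, and PRKAR2B, a gene that fell, held neither the element nor its half-site TGACG. The PDE4A window shown is the 1 of its 5 windows that held the element, and RAP1B and PRKAR2B have 1 window each. Each window is on the plus strand, the start is base 251, and capitals mark the element.
PDE4A, chr19:10416523-10416822: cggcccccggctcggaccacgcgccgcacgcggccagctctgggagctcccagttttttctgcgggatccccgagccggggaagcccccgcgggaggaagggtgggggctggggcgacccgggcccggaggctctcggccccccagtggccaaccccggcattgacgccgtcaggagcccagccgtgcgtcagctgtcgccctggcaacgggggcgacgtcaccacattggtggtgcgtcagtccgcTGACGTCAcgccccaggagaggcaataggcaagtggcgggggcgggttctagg
RAP1B, chr12:68610649-68610948: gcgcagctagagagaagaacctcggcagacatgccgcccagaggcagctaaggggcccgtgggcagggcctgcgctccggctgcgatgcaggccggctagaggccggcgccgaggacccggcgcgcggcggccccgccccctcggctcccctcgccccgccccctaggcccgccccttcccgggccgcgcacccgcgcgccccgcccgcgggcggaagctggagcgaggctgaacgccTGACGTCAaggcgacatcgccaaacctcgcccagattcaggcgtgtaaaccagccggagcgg
PRKAR2B, chr7:107044455-107044754: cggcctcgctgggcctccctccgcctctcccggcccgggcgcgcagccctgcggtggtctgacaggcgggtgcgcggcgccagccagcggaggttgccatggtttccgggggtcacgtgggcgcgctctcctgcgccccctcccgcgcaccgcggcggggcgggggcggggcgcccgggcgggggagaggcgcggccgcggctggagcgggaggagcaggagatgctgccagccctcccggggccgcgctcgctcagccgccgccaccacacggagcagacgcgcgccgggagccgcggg
The element began at base 248 of the PDE4A window and at base 239 of the RAP1B window. TGACGTCA is its own reverse complement, so both strands were covered by 1 search, and the half-site was searched as TGACG and CGTCA and lies within each full element. At least 1 window held the full element in 6 of the 59 genes (10.2%), compared with 2.25% of the 27305 genes with a window, but genes have unequal numbers of windows, and by window the shares were 5.63% and 1.85%. The half-site was found in 54.2% of the matched cAMP signaling genes and 28.4% of all genes, or in 29.6% and 24.6% of windows. The element was present in 2 of 11 matched genes that rose, in 0 of 14 that fell and in 4 of 31 that did not pass (CREB3L2, CREM, PDE7B and PRKAR1A). The half-site was present in 8 of the 11, 5 of the 14 and 18 of the 31. The 3 windows shown thus do not stand for all genes that rose or fell. These are letter matches only, and no binding was measured.

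The adenylyl cyclases moved in both directions. Of the most abundant ones, ADCY3 rose, whereas ADCY6 and ADCY9 did not pass the test. ADCY1, a calcium and calmodulin stimulated cyclase, lies on chromosome 7 from 45574140 to 45723116 (GRCh38, plus strand). Its counts were 27, 38 and 24 in the sensitive libraries and 0, 2 and 0 in the resistant ones. All 3 resistant libraries were thus at or under 3 counts, and the groups did not overlap. From the summed counts of 89 and 2 the level was 44.6 times higher in the sensitive cells, with a 95% interval of 11.99 to 374 that covers counting error only, and the adjusted p by edgeR's quasi-likelihood test was 0.000262. ADCY5, a cyclase inhibited by calcium and by inhibitory G proteins, had 18, 28 and 26 counts in the sensitive and 10, 5 and 6 in the resistant libraries. It fell by 1.76 on the log2 scale (SE 0.35, edgeR's quasi-likelihood test, adjusted p = 0.00406), without overlap between the groups.

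ADCY3, the cyclase of olfactory and other cilia, and ADCY7, a cyclase that G protein beta-gamma subunits can enhance, were higher in the resistant cells. ADCY3 had 499, 509 and 444 counts in the sensitive and 649, 747 and 738 in the resistant libraries. Every resistant library was above every sensitive one, and the log2 fold change was 0.54 (SE 0.10, edgeR's quasi-likelihood test, adjusted p = 0.00336). For ADCY7 the counts were 47, 39 and 50 against 76, 86 and 96, again without overlap, with a log2 fold change of 0.91 (SE 0.20, edgeR's quasi-likelihood test, adjusted p = 0.00722). On unstranded counting, reads of overlapping opposite-strand genes cannot be told apart: CENPO covers 24.6% of the exonic length of ADCY3 and BRD7 covers 41.6% of that of ADCY7, with log2 fold changes of 0.03 and 0.18, neither past the test, and the sources used here do not state whether strand was used. ADCY6, the most abundant cyclase, was at 119.9 ± 18.5 CPM (SD, n = 3) in the sensitive and 109.8 ± 12.6 CPM (SD, n = 3) in the resistant cells. Its log2 fold change of -0.13 had a 95% interval of -0.41 to 0.16, and that of the forskolin-insensitive cyclase ADCY9 was 0.18 with an interval of -0.02 to 0.37. ADCY10, the soluble bicarbonate-stimulated cyclase, was too low to test, at 4 to 17 counts a library.

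Among the 4 G protein alpha subunits, 2 inhibitory ones fell (50%) and the olfactory stimulatory one rose (25%). Of all tested genes 18.3% fell and 17.4% rose. GNAI1 had 1074, 1204 and 1217 counts in the sensitive and 778, 663 and 680 in the resistant libraries. All resistant libraries lay below the sensitive ones, and the log2 fold change was -0.72 (SE 0.10, edgeR's quasi-likelihood test, adjusted p = 0.000445). GNAI2, with 1830, 2133 and 1929 counts against 1376, 1654 and 1673, fell by 0.33 on the log2 scale (SE 0.09, edgeR's quasi-likelihood test, adjusted p = 0.0142). The median over the tested genes of its chromosome, 3, was -0.27, and the GNAI2 call was lost without IGROV1Sen replicate 2 (adjusted p = 0.0546 by the same edgeR test). GNAI3 was at 85.9 CPM in the sensitive and 84.0 CPM in the resistant cells, with a log2 fold change of -0.03 (95% interval -0.26 to 0.20). GNAL, which stimulates cyclases in olfactory and striatal neurons, had 11, 12 and 18 counts in the sensitive and 32, 31 and 22 in the resistant libraries. Its log2 fold change of 1.04 (SE 0.31, edgeR's quasi-likelihood test, adjusted p = 0.026) was lost without IGROV1Sen replicate 2, IGROV1Res replicate 1 or IGROV1Res replicate 2, with adjusted p of 0.112, 0.0712 and 0.0869 by the same edgeR test. The opposite-strand gene MPPE1 covers 26.8% of the exonic length of GNAL and itself rose by 0.59 (edgeR's quasi-likelihood test, adjusted p = 0.0105), and its part in the GNAL counts was not tested.

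Of 16 phosphodiesterases tested, 3 rose and 2 fell. PDE4A, a cAMP-specific enzyme, had 77, 84 and 74 counts in the sensitive and 259, 262 and 257 in the resistant libraries. The libraries of each group were close to one another and far from those of the other group, at 5.60 ± 0.437 CPM (SD, n = 3) and 18.4 ± 0.464 CPM (SD, n = 3). The log2 fold change was 1.72 (SE 0.13, edgeR's quasi-likelihood test, adjusted p = 1.59e-05). Its relatives did not pass the test: PDE4B had 53, 65 and 67 against 50, 38 and 45 counts, with a log2 fold change of -0.48 (95% interval -0.93 to -0.02, edgeR's quasi-likelihood test, adjusted p = 0.0951). PDE4D had 10, 13 and 8 against 14, 16 and 30 counts, with a log2 fold change of 0.94 (95% interval 0.08 to 1.80, edgeR's quasi-likelihood test, adjusted p = 0.0848). PDE4C, at 2 to 12 counts a library, was not tested.

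PDE9A, which is specific for cGMP rather than cAMP, showed the largest fitted decrease among the phosphodiesterases. It had 44, 49 and 40 counts in the sensitive and 5, 5 and 6 in the resistant libraries. The groups were well apart, with a log2 fold change of -3.03 (SE 0.29, edgeR's quasi-likelihood test, adjusted p = 6.51e-05). PDE3A, a high-affinity cAMP enzyme that cGMP inhibits, had 32, 39 and 35 counts against 4, 11 and 7. It fell by 2.25 on the log2 scale (SE 0.34, edgeR's quasi-likelihood test, adjusted p = 0.000831). Its relative PDE3B, which insulin signaling activates through AKT in adipocytes, was more abundant, at 36.6 CPM in the sensitive and 44.97 CPM in the resistant cells. The PDE3B log2 fold change of 0.30 (95% interval 0.06 to 0.54) had an adjusted p of 0.0564 by edgeR's quasi-likelihood test. It was 0.00487 by the same edgeR test without IGROV1Sen replicate 1, the lowest over the 16 other settings. PDE3B passed in 5 of these settings and did not pass in 11.

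PDE1B, a calmodulin-stimulated enzyme that cleaves both cAMP and cGMP, had 10, 6 and 6 counts in the sensitive and 24, 27 and 46 in the resistant libraries. All resistant libraries were higher, and the log2 fold change was 2.11 (SE 0.39, edgeR's quasi-likelihood test, adjusted p = 0.00292). The opposite-strand gene PPP1R1A covers 5.8% of the exonic length of PDE1B, and its part in the PDE1B counts was not tested. PDE6D, a chaperone for prenylated proteins that carries a phosphodiesterase name, had 250, 270 and 240 counts against 278, 404 and 404. Its log2 fold change of 0.50 (SE 0.15, edgeR's quasi-likelihood test, adjusted p = 0.0246) was lost on leaving out either IGROV1Sen replicate 2 or 3 or IGROV1Res replicate 2 or 3, with adjusted p from 0.0762 to 0.0973 by the same edgeR test. Of the 10 genes of the PDE3, PDE4, PDE7 and PDE8 families in the table, 1 rose (PDE4A), 1 fell (PDE3A), 7 did not pass and 1 was not tested. Over all tested genes 17.4% rose and 18.3% fell. PDE12 had the highest CPM of the members with the name, not divided by gene length, at 57.7 in the sensitive and 60.1 in the resistant cells. It is a mitochondrial enzyme that acts on RNA rather than on cyclic nucleotides.

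None of the 6 PKA subunit genes rose, 3 fell and all 6 had a negative log2 fold change, from -2.07 to -0.10, beside 17.4% of all tested genes that rose and 18.3% that fell. With so few genes, none rising is near that background. PRKAR2B, the type II beta regulatory subunit, lies on chromosome 7 from 107044649 to 107161811 (GRCh38, plus strand). Its counts were 262, 519 and 510 in the sensitive and 76, 120 and 108 in the resistant libraries. IGROV1Sen replicate 1 lay well below the other sensitive libraries but above every resistant one. The log2 fold change was -2.07 (SE 0.23, edgeR's quasi-likelihood test, adjusted p = 0.000175), and -2.28 without that library. PRKACB, the beta catalytic subunit, on chromosome 1 from 84078062 to 84238498 (plus strand), had 233, 338 and 359 counts against 115, 89 and 108. The groups did not overlap, and it fell by 1.57 on the log2 scale (SE 0.17, edgeR's quasi-likelihood test, adjusted p = 0.00012).

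PRKACA, the main catalytic subunit of most tissues, had 1427, 1697 and 1572 counts in the sensitive and 1145, 1327 and 1303 in the resistant libraries. In CPM it went from 111.5 ± 1.17 (SD, n = 3) to 89.3 ± 4.95 (SD, n = 3), without overlap, a log2 fold change of -0.32 (SE 0.08, edgeR's quasi-likelihood test, adjusted p = 0.0101). The other regulatory subunits did not pass the test. PRKAR1A, the most abundant PKA gene at 202.1 and 188.5 CPM, had a log2 fold change of -0.10 (95% interval -0.26 to 0.06). PRKAR2A had -0.17 (95% interval -0.39 to 0.04) and PRKAR1B had -0.26 (95% interval -0.55 to 0.02). PKIG, an inhibitor of the free catalytic subunit, was at 9.81 CPM in the sensitive and 11.7 CPM in the resistant cells, with overlapping groups.

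**Figure D2:**
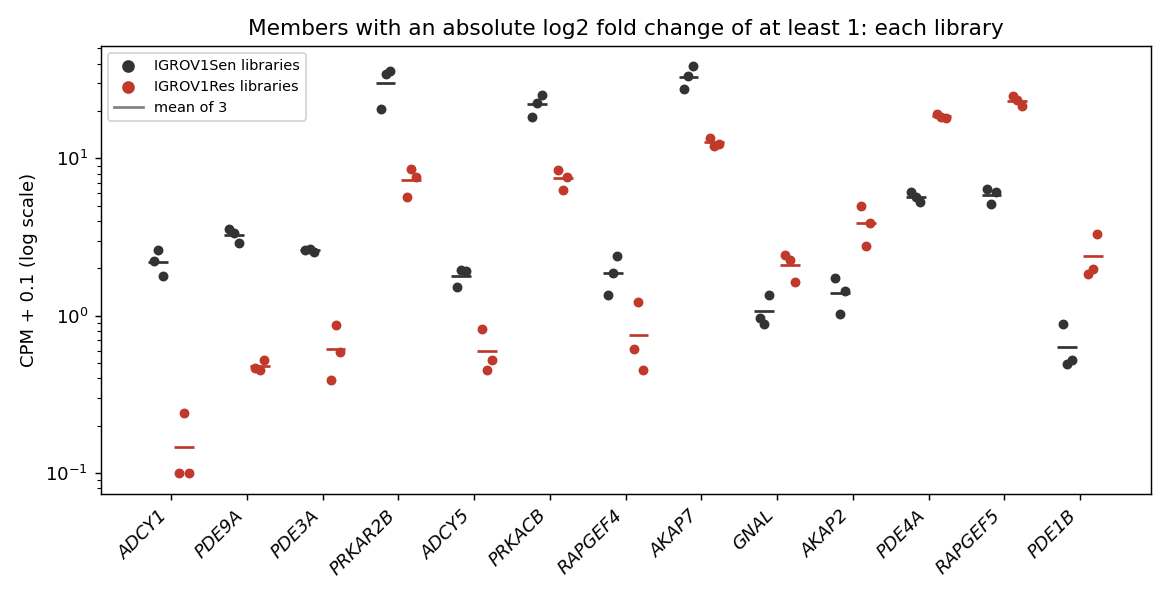
CPM plus 0.1 on a log axis for each of the 13 genes that passed the test with a log2 fold change of 1 or more in size, with a point for each of the 3 IGROV1Sen (dark) and 3 IGROV1Res (red) libraries and a line for each group mean. PDE4A and RAPGEF5 stand well above their sensitive levels in all 3 resistant libraries, and ADCY1 is at or near 0 in all 3.

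To compare relatives on 1 scale, CPM were divided by the exonic length of each gene in GENCODE 29 and summed by family. Summed catalytic subunits went from 21.4 ± 0.365 to 15.6 ± 0.667 CPM per kb (SD, n = 3), and the PRKACB share of this sum from 15.2% ± 2.15 to 7.06% ± 1.31 (SD, n = 3). The PRKAR2B share of the regulatory subunits went from 12.3% ± 3.22 to 3.52% ± 0.645 (SD, n = 3), while that of PRKAR1A was 52.1% in the sensitive and 58.8% in the resistant cells. Summed PDE4 genes went from 1.47 ± 0.006 to 3.31 ± 0.134 CPM per kb (SD, n = 3), and the PDE4A share from 57.3% ± 4.66 to 83.7% ± 1.78. The groups did not overlap for any of these 4 shares, for which the exact permutation test (two-sided) over 20 assignments gave p = 0.1, the smallest that 3 libraries against 3 allow, or 0.17 after adjustment over 17 shares. Among the cyclases ADCY6 held 51.1% ± 6.17 of the sum in the sensitive and 43.1% ± 3.10 in the resistant cells, with a p of 0.2 in the same exact test.

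**Figure D3:**
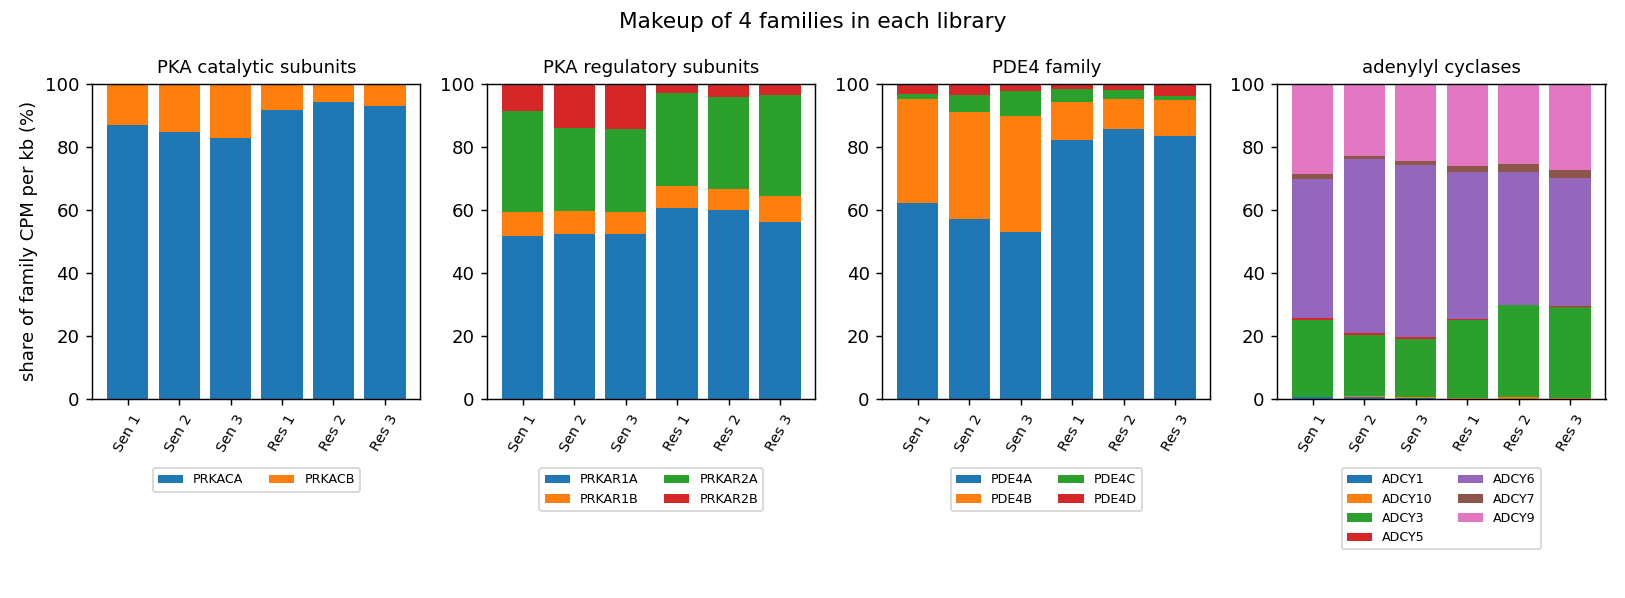
Share of each gene in the summed CPM per kb of exon of its family (percent), as stacked bars for each of the 6 libraries and 4 families. The PRKACB and PRKAR2B bars are thinner and the PDE4A bar is taller in all 3 resistant libraries, and ADCY6, ADCY9 and ADCY3 make up nearly all of the cyclases in every library.

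Of the 13 anchoring proteins, 2 rose (15.4%) and 3 fell (23.1%), beside 17.4% and 18.3% of all tested genes. The most abundant did not pass the test. AKAP7, which tethers PKA near membrane channels, had 349, 501 and 548 counts in the sensitive and 183, 171 and 176 in the resistant libraries. As for PRKAR2B and PRKACB, IGROV1Sen replicate 1 was the lowest sensitive library, and the groups did not overlap. AKAP7 fell by 1.39 on the log2 scale (SE 0.14, edgeR's quasi-likelihood test, adjusted p = 8.53e-05), and the value was -1.51 without that library. AKAP2 had 21, 14 and 19 counts against 67, 38 and 54, a log2 fold change of 1.54 (SE 0.32, edgeR's quasi-likelihood test, adjusted p = 0.00462). Its value is uncertain, since the readthrough gene PALM2-AKAP2 shares 85.8% of its exonic length on the same strand.

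The other 3 anchoring proteins that passed changed less and were lost when single libraries were left out. AKAP5, a scaffold at the plasma membrane, had 99, 147 and 141 counts in the sensitive and 157, 190 and 192 in the resistant libraries, with a log2 fold change of 0.48 (SE 0.15, edgeR's quasi-likelihood test, adjusted p = 0.0325). Without each library other than IGROV1Res replicate 1, its adjusted p was 0.056 to 0.0999 by the same edgeR test. AKAP6, a scaffold of the nuclear envelope in muscle, had 123, 195 and 206 counts against 135, 91 and 105, with overlapping groups and a log2 fold change of -0.65 (SE 0.21, edgeR's quasi-likelihood test, adjusted p = 0.0355). AKAP8L, a nuclear protein, had 957, 1424 and 1283 counts against 1070, 912 and 897, also with overlap, and a log2 fold change of -0.34 (SE 0.12, edgeR's quasi-likelihood test, adjusted p = 0.0468). Both calls were lost without IGROV1Sen replicate 2 or 3 or IGROV1Res replicate 2 or 3, where the same edgeR test gave adjusted p from 0.0986 to 0.137 for AKAP6 and from 0.14 to 0.163 for AKAP8L. The opposite-strand gene AC006128.1 covers 22.4% of the exonic length of AKAP8L, and its part in the AKAP8L counts was not tested. AKAP1, an anchor of the outer mitochondrial membrane and the most abundant of the group, was at 133.0 and 147.3 CPM, with a log2 fold change of 0.15 (95% interval -0.02 to 0.31).

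The RAPGEF and RAP1 genes held 4 that rose (40%) and 2 that fell (20%) among 10, beside 17.4% and 18.3% of all tested genes. RAPGEF5, a RAP exchange factor, lies on chromosome 7 from 22118238 to 22357144 (GRCh38, minus strand). Its counts were 80, 76 and 86 in the sensitive and 340, 332 and 307 in the resistant libraries. The libraries within each group were close and the groups far apart, at 5.78 ± 0.670 and 23.2 ± 1.67 CPM (SD, n = 3). The log2 fold change was 2.01 (SE 0.14), and the adjusted p of 8.62e-06 from edgeR's quasi-likelihood test was the lowest among the 65 genes. RAPGEF1, which receptor tyrosine kinases engage through CRK adaptors and the most abundant gene of the whole set, had 5249, 6173 and 5882 counts against 4265, 3330 and 3527. It fell by 0.64 on the log2 scale (SE 0.11, edgeR's quasi-likelihood test, adjusted p = 0.00186), without overlap.

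The directly cAMP-activated factors RAPGEF3 and RAPGEF4, also called Epac, went in opposite directions. RAPGEF3 had 598, 931 and 856 counts in the sensitive and 1127, 1464 and 1037 in the resistant libraries, a log2 fold change of 0.61 (SE 0.14, edgeR's quasi-likelihood test, adjusted p = 0.0095), with an antisense gene over 15.2% of its exonic length. RAPGEF4 had 16, 27 and 33 counts against 7, 16 and 5, and fell by 1.43 on the log2 scale (SE 0.43, edgeR's quasi-likelihood test, adjusted p = 0.029). The RAPGEF4 call was lost without IGROV1Sen replicate 2 or 3 or IGROV1Res replicate 1 or 3, with adjusted p from 0.0725 to 0.115 by the same edgeR test. RAP1B, a RAP1 GTPase, had 689, 673 and 710 counts against 879, 1051 and 1143 and rose by 0.56 (SE 0.11, edgeR's quasi-likelihood test, adjusted p = 0.00363). RAP1A was at 29.9 CPM in the sensitive and 28.5 CPM in the resistant cells, with overlapping groups. RAP1GAP2, which returns RAP1 to its inactive form, had 555, 796 and 700 counts against 994, 1064 and 902 and rose by 0.53 (SE 0.10, edgeR's quasi-likelihood test, adjusted p = 0.00303).

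None of the 9 tested genes of the CREB family and coactivators rose, 2 fell (22.2%) and none reached an absolute log2 fold change of 1. Over all tested genes 17.4% rose, 18.3% fell and 10.4% reached that size with the test passed. With 9 genes, the counts are near that background. CREB1, the PKA-phosphorylated factor, had 694, 855 and 883 counts in the sensitive and 665, 688 and 680 in the resistant libraries. Its CPM did not overlap, with a log2 fold change of -0.26 (SE 0.08, edgeR's quasi-likelihood test, adjusted p = 0.0337), which was lost without any 1 library other than IGROV1Sen replicate 1 (adjusted p from 0.0535 to 0.169 by the same edgeR test). CREB3L4, a membrane-bound factor of the endoplasmic reticulum, had 87, 111 and 113 counts against 57, 60 and 66 and fell by 0.77 (SE 0.16, edgeR's quasi-likelihood test, adjusted p = 0.00554). The opposite-strand genes SLC39A1 and JTB cover 9.6% and 3.3% of its exonic length, and their part in its counts was not tested. CREB3L2, also held in the endoplasmic reticulum, had the highest CPM of the group, not divided by gene length, at 131.2 and 143.7. Its log2 fold change was 0.13 (95% interval -0.05 to 0.31). CREM had overlapping groups at 17.03 and 16.7 CPM, and the CREB coactivators CRTC1, CRTC2 and CRTC3 did not pass, with log2 fold changes of -0.10, -0.29 and -0.14. CREB3L1, at 1 to 14 counts a library, was not tested.

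**Figure D4:**
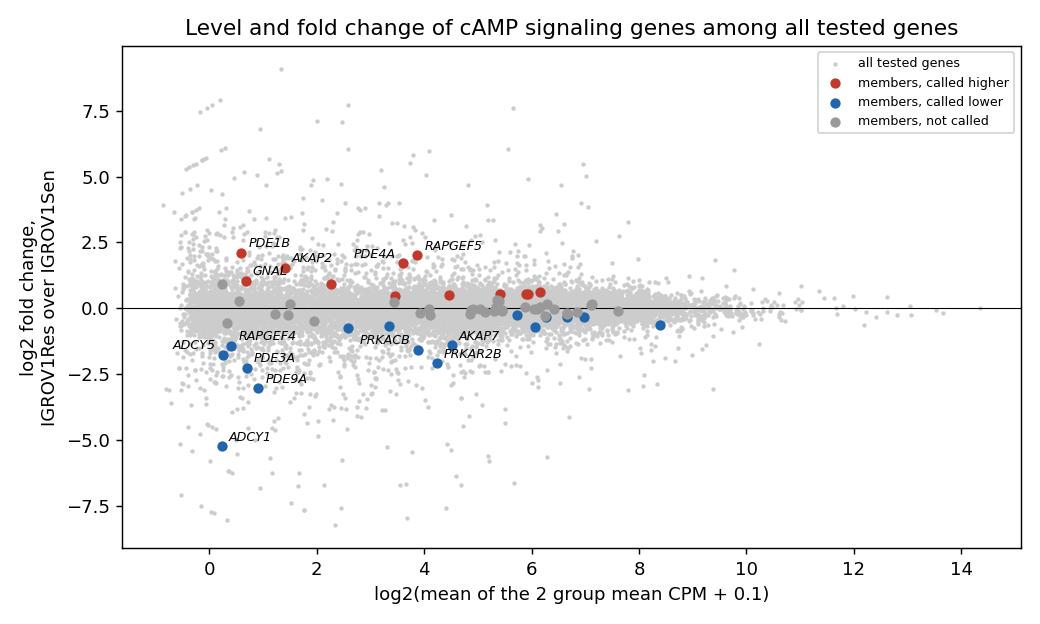
Log2 fold change of IGROV1Res over IGROV1Sen (vertical axis) against the log2 of the mean of the 2 group mean CPM plus 0.1 (horizontal axis) for all 13791 tested genes (light grey) and the 65 cAMP signaling genes (red rose, blue fell, dark grey did not pass). PRKAR2B, PRKACB, AKAP7, PDE4A and RAPGEF5 changed at moderate levels, whereas ADCY1, ADCY5, PDE1B, PDE3A, PDE9A, GNAL, AKAP2 and RAPGEF4 were low.

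Receptors that feed the pathway were taken from lists outside the set, and most of those listed were not found by symbol among the deposited counts. Found were 12 of 44 coupled to the stimulatory G protein and 17 of 53 coupled to the inhibitory one. Of 11 tested receptors coupled to the stimulatory G protein, 2 rose (18.2%) and 3 fell (27.3%), beside 17.4% and 18.3% of all tested genes. CALCRL, the receptor of adrenomedullin and CGRP, had 555, 713 and 703 counts in the sensitive and 87, 32 and 66 in the resistant libraries. It fell by 3.41 on the log2 scale (SE 0.26, edgeR's quasi-likelihood test, adjusted p = 1.59e-05), far outside the range of the sensitive libraries. ADORA2B, an adenosine receptor, had 30, 48 and 34 counts against 142, 175 and 125 and rose by 1.98 (SE 0.21, edgeR's quasi-likelihood test, adjusted p = 0.00011). Of 15 receptors coupled to the inhibitory G protein, 2 rose (13.3%) and 5 fell (33.3%). GABBR1, a GABA-B receptor subunit, and S1PR5, a sphingosine 1-phosphate receptor, fell by 3.27 and 2.63, and HTR1D, a serotonin receptor, and F2RL1, a protease-activated receptor, rose by 2.34 and 1.94. LPAR3, a lysophosphatidic acid receptor, had 16, 36 and 27 counts in the sensitive libraries and 0 in each resistant one, which allows up to 0.217 CPM.

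Of 33 G protein subunits and desensitization genes, 5 rose (15.2%) and 10 fell (30.3%), beside the same 17.4% and 18.3% over all tested genes. The stimulatory subunit GNAS was at 908.7 and 899.5 CPM, with a log2 fold change of -0.01. GNG11, a gamma subunit, had 49, 55 and 49 counts in the sensitive and 1, 0 and 0 in the resistant libraries. GPSM1, which binds inhibitory alpha subunits, fell by 1.03, and ARRB1, an arrestin that desensitizes receptors, rose by 1.06. Anchoring proteins outside the set gave 4 that rose (28.6%) and 1 that fell (7.14%) of 14, among them ARFGEF2 (0.61) and NF2 (0.61) on the log2 scale.

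Of 47 listed target genes of CREB, 26 were found among the deposited counts. Of the 25 tested, 9 rose (36%) and 4 fell (16%), beside 17.4% and 18.3% of all tested genes. The list had a median log2 fold change of 0.08. ATF3, a stress-induced factor, rose by 2.04 (SE 0.10, edgeR's quasi-likelihood test, adjusted p = 1.3e-06), and the neuropeptide precursor VGF rose by 1.90. IRS2, an insulin receptor substrate, rose by 0.66, and the phosphatase DUSP1 by 0.90. BDNF, a neurotrophin, fell by 3.80 (SE 0.29, edgeR's quasi-likelihood test, adjusted p = 1.83e-05). PPARGC1A, a coactivator of mitochondrial genes, fell by 2.42, FOS by 1.51 and BCL2, an inhibitor of apoptosis, by 0.91. Among the targets that did not pass were NR4A1, JUNB and PER1, with log2 fold changes of 0.04, -0.17 and -0.20. Many of these genes also respond to other pathways, and CREB activity was not measured. Of 27 CREB coactivators, kinases and related factors, 4 rose (14.8%) and 6 fell (22.2%), with CAMK1D, a calmodulin-dependent kinase, down by 2.24 on the log2 scale. ATF3 is counted in this list as well as among the CREB targets, and RGS2 among the targets and the G protein genes. Of 19 listed export proteins and other cAMP binders, 9 were found among the deposited counts. Of the 8 tested, 1 fell, BVES, a cAMP-binding membrane protein, by 1.05.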

How the data were processed

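RNA-seq counts per Ensembl gene were deposited for 6 libraries, 3 of each line, and the authors also deposited a comparison table with log2 fold changes and log2 CPM, a likelihood ratio score and p-values with adjusted p-values. From that deposited table only gene symbols were used. The submitters' processing notes name hg18 and edgeR, and the aligner and counter are not given in the sources used here. Counts were filtered (filterByExpr, minimum count 10, minimum total 15), scaled by TMM and tested with edgeR 4.0.16 (quasi-likelihood, R 4.3.3) on both groups with no covariates. The fit was tested on simulated data. CPM divide counts by the library total and TMM factor or, for shares, also by exonic length. Chromosomal positions and overlaps come from GENCODE 29 (GRCh38), matched by Ensembl identifier, and promoters from RefSeq (GRCh38.p14). In 17 of the 68 genes at least 5% of the exonic length is shared with another gene.

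Genes given in full passed the test with a log2 fold change of 1 or more in size and at least 1 CPM in a group. Genes with the highest mean CPM of their role, close relatives of the named genes and other genes that passed were added. From lists outside the set, only some of the genes that passed are named. These examples were not always the genes with the lowest adjusted p, and not every list has examples of both directions. The members and lists were chosen with earlier results of these data known. Alternatives were another test (edgeR likelihood ratio, DESeq2 1.42.0), other scaling and filters, a replicate block, each library left out, IGROV1Sen replicates 2 and 3 summed and, chosen after seeing the data, IGROV1Sen replicate 1 and IGROV1Res replicate 3 left out together.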

Additional observations from a re-analysis of the deposited data

How the results depend on the processing

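Over 16 other settings, all 28 cAMP signaling genes that passed kept their direction wherever they could be fitted, and 19 passed in every setting run. The 9 that were lost in at least 1 were CREB1, GNAI2, GNAL, PRKACA, RAPGEF4, AKAP5, AKAP6, AKAP8L and PDE6D, and 8 of the 37 that had not passed did so in at least 1. With at least 10 counts required in every library, ADCY1, ADCY5, PDE1B, PDE3A, PDE9A and RAPGEF4 could not be tested. Leaving out 1 library gave 9 to 14 genes that rose and 11 to 17 that fell, beside 12 and 16, and 1538 to 3023 and 1814 to 2992 over all genes, beside 2394 and 2530. The lowest counts over all genes came without IGROV1Sen replicate 3 (1538 rose), and without IGROV1Sen replicate 2 it was 1572. Without IGROV1Sen replicate 1 and IGROV1Res replicate 3 together, 15 rose and 18 fell, of which 11 and 16 were among the 12 and 16, and 2946 and 2905 over all genes. With IGROV1Sen replicates 2 and 3 summed, 9 rose and 12 fell, all of them among the 12 and 16. Over all genes 1605 rose and 1892 fell in that setting. CREB1, GNAL, RAPGEF4, AKAP5, AKAP6, AKAP8L and PDE6D were lost in it. An adjusted p under 0.01 left 9 that rose and 10 that fell, and 1373 and 1584 over all genes. A log2 fold change of 1 or more in size left 5 and 8, and 620 and 811 over all genes. The causes were not tested.

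Replicate numbers are shared by the groups. Deviations from the group mean correlated across genes at -0.429, 0.095 and -0.401 for same-numbered libraries. For IGROV1Sen replicate 1 with IGROV1Res replicate 3 the correlation was 0.545. These values do not tell whether same-numbered libraries shared a batch or culture, which was not tested. With a replicate block, 9 cAMP signaling genes rose and 10 fell, and 1530 rose and 1732 fell over all genes. PRKACA was lost in that setting only, with an adjusted p of 0.0522 by edgeR's quasi-likelihood test. With 3 libraries a group, genes at a few counts, such as PDE4C, were beyond what this depth could test.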
